A study of Mus musculus with 6 samples.

Results

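A set of 10 transcription factor genes that mark or specify mesenchymal lineages was followed in Nestin-GFP-positive cells of neonatal mouse skin and its fat layer: Twist1, Twist2, Prrx1, Prrx2, Tcf21, Osr1, En1, Tbx15, Tbx18 and Foxf2. The 10 were chosen by name as factors of dermal, mural and fibroblast cells, and each matched 1 of the 37991 gene rows by its Ensembl identifier. Dermis with the fat layer below it was taken from pups 3 days old, and single cells were sorted on the Nestin-GFP reporter, which is active where Nestin regulatory sequence is active. In the 3 mutant mice (Nes-GFP;Nes-Cre;PDGFRα+/[S]D842V) the reporter was joined by Nestin-Cre, a recombinase, and by the constitutively active change D842V on 1 of the Pdgfra alleles; the labels do not explain the mark "[S]". The labels of the 3 control mice (Nes-GFP) name only the reporter. Since the control labels name no Nestin-Cre, the recombinase and the allele cannot be told apart, and recombination is limited to cells with a history of Nestin activity. Each library was labelled as white adipose tissue from 1 mouse per the labels' protocols, and the sources used here give no strain, sex, litter or batch.

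These factors act early in the mesenchyme, the loose connective tissue that gives rise to dermis, fat, muscle sheath and the coat of vessels. They bind DNA through different domains: Twist1, Twist2 and Tcf21 are basic helix-loop-helix (bHLH) proteins, Prrx1, Prrx2 and En1 are homeodomain proteins, Osr1 is a zinc finger protein, Tbx15 and Tbx18 are T-box proteins and Foxf2 is a forkhead protein. In mouse skin, En1 and Twist2 label fibroblast lineages of the dermis, while Tbx18 labels mural cells, the pericytes and smooth muscle cells around vessels, in many organs.

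The count files held 15110824 to 18792939 gene reads per mutant library and 11912469 to 15839701 per control library, and Col3a1 was the most abundant gene in all 6. Pdgfra, which carried the mutant allele, had 357 ± 11.9 CPM in mutants and 843 ± 21.0 CPM in controls (SD, n = 3 each); CPM are counts scaled to a common library total, here with TMM factors. Rows that name no gene took 36.9% to 41.7% of the listed reads and were left out. Markers of other cell types were present. Among all tested genes, 8.63% were called higher and 9.13% lower in mutants, the share to read beside the counts called below. The summed level of 12 skeletal muscle and satellite cell markers was 207 to 313 CPM in mutants and 81.1 to 105.0 CPM in controls, with 9 of the 12 called higher. The sum of 6 endothelial markers was 188 to 276 CPM in mutants and 116 to 152 CPM in controls, and that of 5 keratinocyte markers 704 to 878 CPM in mutants and 349 to 591 CPM in controls, with 3 of each list called higher. Mutants were at 445 to 656 CPM and controls at 737 to 993 CPM for 6 smooth muscle markers, of which 1 was called lower. The sums of 7 pericyte markers, 1011 to 1268 CPM in mutants and 1032 to 1290.0 CPM in controls, overlapped, with 2 of the 7 called higher. Of the 6 adipocyte markers, which bear on the tissue label, Lep was at 0 in every mutant library and in control replicate 1, and the summed level was 243 to 514 CPM in mutants and 148 to 227 CPM in controls. No marker on these lists was at 0 in all 6 libraries.

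Of the 10 factors, En1 was lower in mutant cells and Tbx18 was higher. Twist1, Twist2, Prrx1, Prrx2, Osr1 and Tbx15 were well measured and not called, Foxf2 was too variable to read, and Tcf21 was close to undetected. Of the 9 genes with enough reads to be tested, 1 was called higher and 1 lower at an adjusted p under 0.05 (edgeR quasi-likelihood test, Benjamini-Hochberg over all genes). Over the whole table of 15035 tested genes, 8.63% were called higher, 9.13% lower and 17.8% either way, so 2 calls among 9 genes is not far from the share of the table. The median log2 fold change, mutant over control, was -0.10 over the 9 genes and 0.01 over all tested genes.

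**Figure D1:**
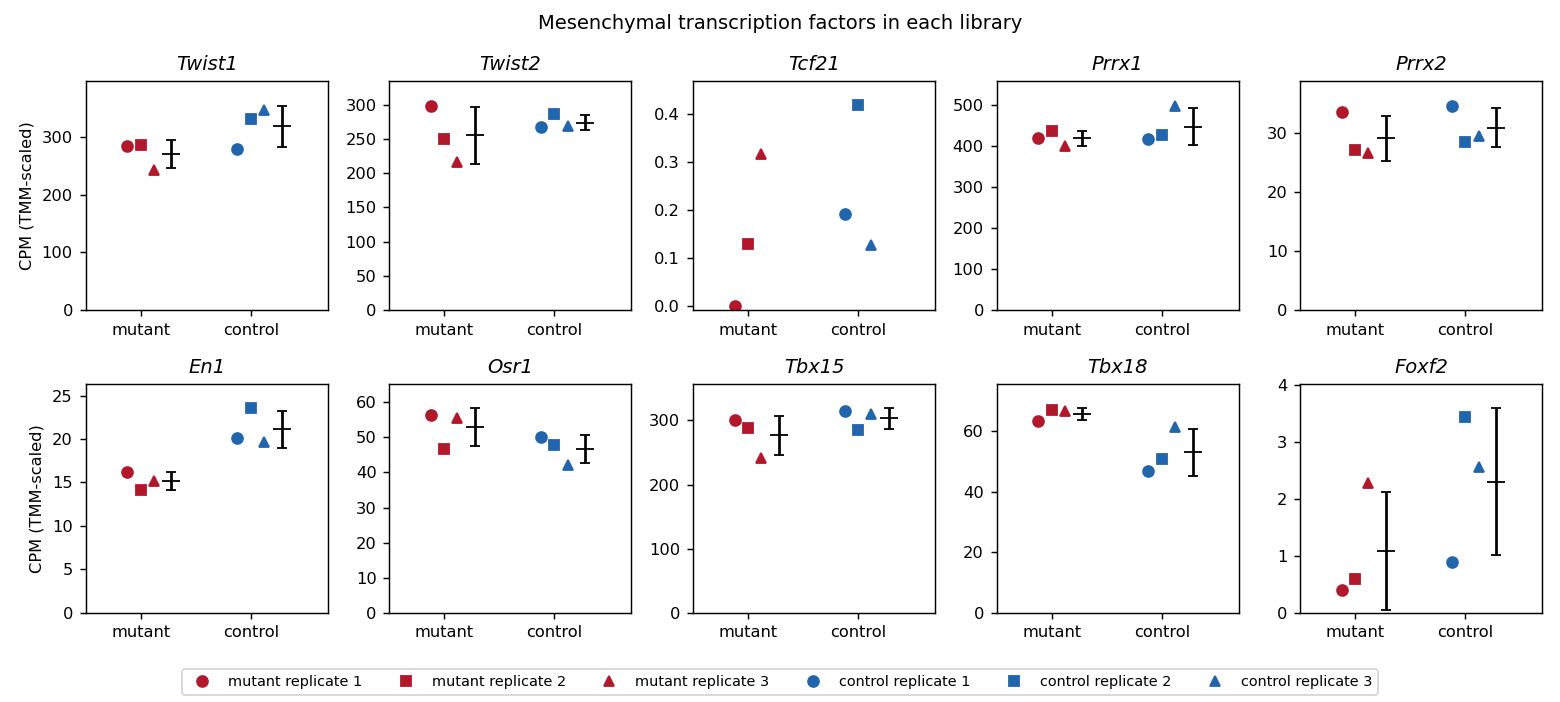
Level of each factor in every library, in CPM on a linear axis, with mutant libraries on the left and control libraries on the right of each panel; symbols mark the replicate, and bars give the mean ± SD of 3 libraries for the 9 tested genes. The mutant and control points separate for En1 (14.2 to 16.2 CPM in mutants, 19.7 to 23.5 CPM in controls) and Tbx18 (63.5 to 67.0 CPM in mutants, 46.8 to 61.5 CPM in controls) and overlap in the other panels.

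The factors spanned a wide range of abundance. Levels of different genes are compared here as CPM per kilobase of exon, with the length of all annotated exons of a gene as the divisor. On that per-length scale Twist1 was highest, with 166 ± 14.7 in mutants and 196 ± 21.9 in controls, a level above 98.9% of tested genes. Twist2 (80.4 ± 13.0 in mutants, 86.2 ± 3.28 in controls) and Tbx15 (73.8 ± 8.25 in mutants, 80.9 ± 4.25 in controls) followed, and Twist2 exceeded Tbx15 in all 6 libraries by a ratio of only 1.00 to 1.18, so the pair was not separated beyond its spread over libraries. Prrx1 came next with 37.9 ± 1.60 in mutants and 40.5 ± 4.04 in controls, above Osr1 with 25.6 ± 2.60 in mutants and 22.6 ± 1.98 in controls. Prrx2 (14.8 ± 1.94 in mutants, 15.7 ± 1.68 in controls) and Tbx18 (13.9 ± 0.407 in mutants, 11.2 ± 1.62 in controls) overlapped, and Prrx2 was the higher of the pair in 4 of 6 libraries. En1 stood below both at 5.78 ± 0.394 in mutants and 8.05 ± 0.803 in controls. Foxf2 (0.459 ± 0.435 in mutants, 0.972 ± 0.546 in controls) and Tcf21 (0.063 ± 0.068 in mutants, 0.105 ± 0.065 in controls) closed the order, and their ranges overlapped. The lengths come from a later annotation than the one used for counting. With the longest coding transcript as the length, a choice made after seeing the data, the order of means was the same, but which neighbours overlapped was not. Prrx1, at 66.4 over all libraries in place of 39.2, then ranged from 61.5 to 76.5 and overlapped Tbx15 (67.8 to 88.2). Prrx2 then ranged from 18.4 to 24.0, which overlapped Osr1 (20.9 to 28.05) and no longer overlapped Tbx18 (9.99 to 14.3).

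**Figure D2:**
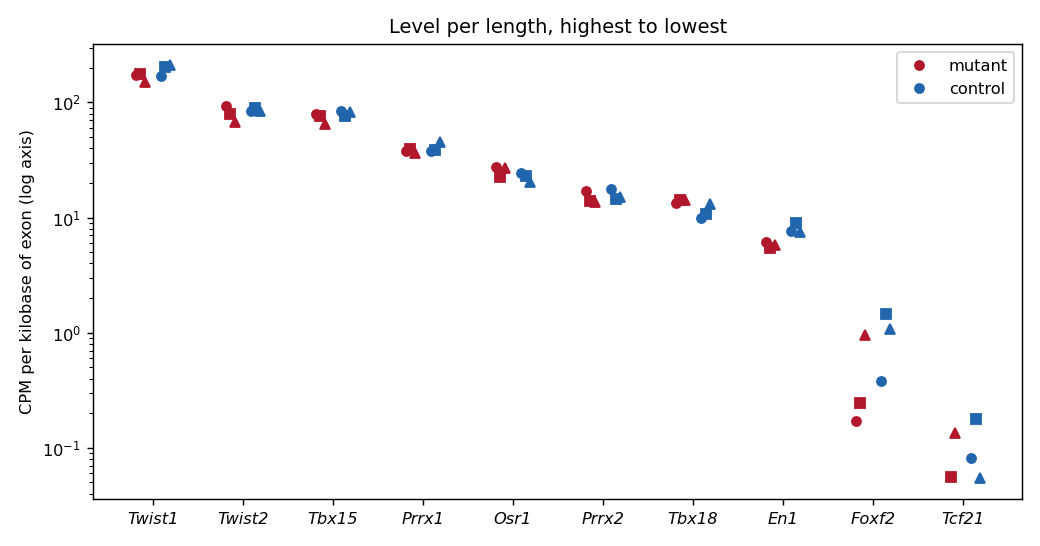
Level per length (CPM per kilobase of exon, log axis) of the 10 factors in each library, ordered from the highest mean to the lowest; mutant libraries are red and left of the blue control libraries, and the symbol is the replicate. Of the factors, 8 lie within 5.39 to 213, and Foxf2 (at most 1.45) and Tcf21 (at most 0.178) lie well below; the mutant library with no Tcf21 count cannot be drawn on a log axis.

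Among the bHLH factors, Twist1 and Twist2 were both abundant. Twist1, which holds mesenchymal cells in an undifferentiated and migratory state, had 284, 285 and 243 CPM in mutant replicates 1 to 3, against 278, 330.2 and 347 CPM in control replicates 1 to 3. Control replicate 1 fell within the mutant values, and the other 2 controls lay above every mutant library. Means were 271 ± 24.0 CPM in mutants and 318 ± 35.6 CPM in controls, and the log2 fold change of -0.23 (95% interval -0.45 to -0.02) was not called, with an edgeR adjusted p of 0.113. Without control replicate 1 the log2 fold change was -0.33 and Twist1 was called lower (edgeR adjusted p = 0.0187), and with no filter on low counts it was also called (0.0384); over all 14 alternatives the adjusted p was 0.0187 to 0.36. Twist2, the close relative also named Dermo1, had 298, 250.2 and 216 CPM in mutants, against 267, 286 and 268 CPM in controls. Mutant libraries lay on both sides of the controls. Its log2 fold change was -0.10 (95% interval -0.33 to 0.13, edgeR adjusted p = 0.533), and it was 0.0037 without mutant replicate 3 (edgeR adjusted p = 0.986; 0.11 to 0.986 over 14 alternatives). The ratio of Twist1 to Twist2 counts was 1.07 ± 0.105 in mutants and 1.16 ± 0.126 in controls, not corrected for length. Their transcripts share no identical run longer than 23 bases. In the later annotation an antisense gene, Gm29100, overlaps exons of Twist2; it has no row of its own in the counts, and the sources used here do not say whether counting used strand.

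Tcf21, a bHLH factor of visceral and epicardial mesenchyme, was near the limit of detection. It had 0, 2 and 6 counts in mutant replicates 1 to 3, against 3, 5 and 2 counts in control replicates 1 to 3. A count of 0 allows up to 3 counts, which corresponded to 0.160 to 0.199 CPM in mutants and 0.189 to 0.252 CPM in controls before TMM scaling, for counting error only. Tcf21 did not pass the filter on low counts, was not tested, and a difference between genotypes was not detectable at this depth.

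The homeodomain factors Prrx1 and Prrx2 were not called. Prrx1, a marker of limb and dermal mesenchyme and of fibroblast progenitors, had 419.6, 437 and 402 CPM in mutants, against 417, 428 and 499 CPM in controls. The groups overlapped, and control replicate 3 was the highest library. The log2 fold change was -0.10 (95% interval -0.28 to 0.09, edgeR adjusted p = 0.479). Prrx2, its paralogue, had 33.4, 27.1 and 26.6 CPM in mutants, against 34.6, 28.4 and 29.5 CPM in controls. In both groups replicate 1 was the highest, and the groups overlapped. The log2 fold change was -0.09 (95% interval -0.33 to 0.15, edgeR adjusted p = 0.611). The ratio of Prrx1 to Prrx2 counts, not corrected for length, was 14.6 ± 1.83 in mutants and 14.7 ± 2.44 in controls.

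En1 was lower in mutant cells. It encodes Engrailed 1, a homeodomain factor of the ventral limb ectoderm and midbrain that also labels the fibroblast lineage of dorsal mouse skin that lays down most scar matrix. En1 had 16.2, 14.2 and 15.1 CPM in mutant replicates 1 to 3, from 242, 218 and 287 reads, against 20.1, 23.5 and 19.7 CPM in control replicates 1 to 3, from 315, 281 and 308 reads. All mutant libraries lay below all control libraries, as did those of 18.6% of tested genes. Means were 15.2 ± 1.03 CPM in mutants and 21.1 ± 2.11 CPM in controls. The log2 fold change was -0.48 (SE 0.112, 95% interval -0.72 to -0.23), or 0.719-fold, with an edgeR adjusted p of 0.013. The call was lost without control replicate 2, the highest library (log2 fold change -0.40, edgeR adjusted p = 0.0625), and it held in the other 13 alternatives tried, with an adjusted p of 0.00142 to 0.0625 over all of them.

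Tbx18 was higher in mutant cells by a small amount. Tbx18 is a T-box factor used in mice to mark pericytes and vascular smooth muscle, and it is also expressed in dermal papilla precursors. It had 63.5, 67.0 and 66.5 CPM in mutant replicates 1 to 3, from 947, 1032 and 1262 reads, against 46.8, 50.7 and 61.5 CPM in control replicates 1 to 3, from 731, 605 and 962 reads. All mutant libraries lay above all controls, as did those of 19.2% of tested genes, and control replicate 3 was the control closest to the mutants. Means were 65.7 ± 1.92 CPM in mutants and 53.0 ± 7.64 CPM in controls. The log2 fold change was 0.31 (SE 0.0981, 95% interval 0.10 to 0.52), or 1.24-fold, with an edgeR adjusted p of 0.047, just under the threshold. The call was lost in 8 of 14 alternatives, among them DESeq2 (adjusted p = 0.0605) and each single library left out except control replicate 3, with a log2 fold change of 0.21 to 0.43 and an adjusted p of 0.00666 to 0.143 over all 14. The later annotation places an antisense gene, D030062O11Rik, over exons of Tbx18. That gene has no row of its own in the counts. Whether its reads were counted to Tbx18 is not known, since the use of strand in counting is not stated.

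Beside these differences, some marker sums moved with genotype: skeletal muscle, endothelial and keratinocyte markers summed higher in every mutant library than in any control, and smooth muscle markers summed lower. The same was true of adipocyte and mast cell markers on the higher side and of Schwann cell markers on the lower side. Pericyte and fibroblast marker sums overlapped between the groups, as did those of macrophage and leukocyte and of melanocyte markers. A list of 9 dissociation response genes summed to 9742 to 11136 CPM in mutants and 5290 to 8586 CPM in controls, with control replicate 1 the lowest. The 9 genes did not move together: 1 was called higher (Jun), 2 lower (Hspa1a and Hspa1b) and 6 were not called. The part of these lists in the differences of En1 and Tbx18 was not tested. In bulk sorted cells, fewer cells of a type and less RNA per cell cannot be told apart.

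**Figure D3:**
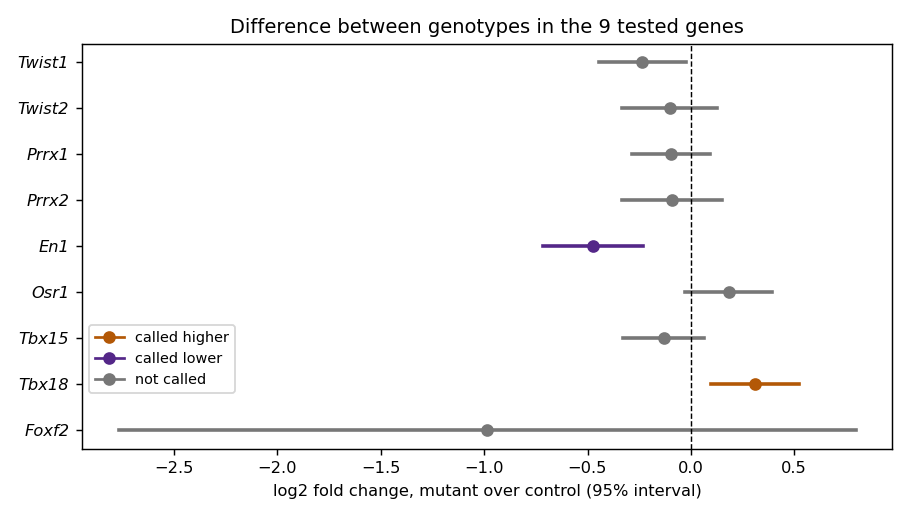
Log2 fold change, mutant over control, of the 9 tested factors with its 95% interval from the edgeR fit; the dashed line is no difference, and Tcf21 was not tested. En1 (-0.48) and Tbx18 (0.31) were called, and the interval of Foxf2, -2.77 to 0.80, is far wider than the others.

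Of the 10 factors, 8 matched a promoter in the RefSeq table (build GRCm38.p6), which gives 250 bases before to 50 bases after an annotated start. The windows of En1 and Tbx18, the 2 genes called, are printed 5′ to 3′ along the gene's own strand. Capitals mark the E-box CANNTG, the general letters that bHLH proteins recognise. The pattern leaves the middle letters open and was not matched to any single bHLH factor. It reads the same on both strands. The En1 window is chr1:120602237-120602536 on the plus strand and the Tbx18 window is chr9:87731211-87731510 on the minus strand.
En1: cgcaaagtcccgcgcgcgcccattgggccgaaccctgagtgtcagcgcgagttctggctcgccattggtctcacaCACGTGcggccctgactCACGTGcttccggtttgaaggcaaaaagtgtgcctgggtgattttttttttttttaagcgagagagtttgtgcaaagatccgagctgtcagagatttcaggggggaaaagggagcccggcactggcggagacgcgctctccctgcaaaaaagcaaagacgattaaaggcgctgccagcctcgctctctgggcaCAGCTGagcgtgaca
Tbx18: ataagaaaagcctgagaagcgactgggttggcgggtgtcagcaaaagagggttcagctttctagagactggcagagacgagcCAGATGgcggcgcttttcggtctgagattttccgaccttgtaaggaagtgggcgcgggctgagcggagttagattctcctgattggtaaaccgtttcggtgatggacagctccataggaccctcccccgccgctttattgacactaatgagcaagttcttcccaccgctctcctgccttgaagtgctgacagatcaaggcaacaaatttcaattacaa
The En1 window held 3 E-boxes, 2 of them CACGTG and 1 CAGCTG, and the Tbx18 window held 1, CAGATG. Of 32851 promoter windows of 300 bases in the table, 72.3% held at least 1 E-box. Among the other matched factors the Foxf2 window held 1 E-box and those of Twist1, Twist2, Prrx1, Prrx2 and Tcf21 held none of these letters. The homeodomain core TAATTA, searched on both strands, was present once in the Prrx1 window and in 5.29% of all windows, and the T-box half-site AGGTGTGA was in none of the 8 and in 1.28% of all windows. A letter match describes the sequence and is no evidence of binding.

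Osr1 and Tbx15 were not called. Osr1, a zinc finger factor of intermediate mesoderm and of fibro-adipogenic progenitors in embryonic limb muscle, had 56.4, 46.7 and 55.6 CPM in mutants, against 50.1, 47.8 and 42.1 CPM in controls. Mutant replicates 1 and 3 lay above every control, and mutant replicate 2 lay among them. Means were 52.9 ± 5.37 CPM in mutants and 46.7 ± 4.10 CPM in controls, with a log2 fold change of 0.18 (95% interval -0.03 to 0.39, edgeR adjusted p = 0.21). Tbx15, a T-box factor of dorsal dermis, fat depots and fast muscle fibres, had 300.1, 288 and 242 CPM in mutants, against 314, 285 and 309.8 CPM in controls. Mutant replicate 3 was the lowest library, and the groups overlapped. Its log2 fold change was -0.13 (95% interval -0.33 to 0.06, edgeR adjusted p = 0.336). The ratio of Tbx15 to Tbx18 counts, again not corrected for length, was 4.73, 4.30 and 3.63 in mutants, against 6.72, 5.62 and 5.04 in controls. The groups did not overlap in that ratio, which was not tested. Tbx18 by itself already separated the groups, so the ratio is no further result.

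For the 6 abundant factors that were not called, Twist1, Twist2, Prrx1, Prrx2, Osr1 and Tbx15, the 95% intervals of the ratio of mutant to control lay between 0.735 and 1.31. A difference of 1.5-fold in either direction is outside each of these intervals.

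Foxf2 was read from few counts and varied within groups. Foxf2 is a forkhead factor needed by brain pericytes and gut mesenchyme in mice. It had 0.402, 0.584 and 2.27 CPM in mutant replicates 1 to 3, from 6, 9 and 43 reads, against 0.895, 3.44 and 2.56 CPM in control replicates 1 to 3, from 14, 41 and 40 reads. In all, 3 libraries lay under 1 CPM, 2 of them mutant and 1 control, so the groups overlapped. The log2 fold change of -0.99 (95% interval -2.77 to 0.80) was not called, with an edgeR adjusted p of 0.406. It was -2.17 without mutant replicate 3 (edgeR adjusted p = 0.053, the smallest of 14 alternatives, with a largest of 0.67), -0.63 without mutant replicate 1 and -0.61 without control replicate 2. A further annotated gene, Gm27516, lies antisense over its exons.

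**Figure D4:**
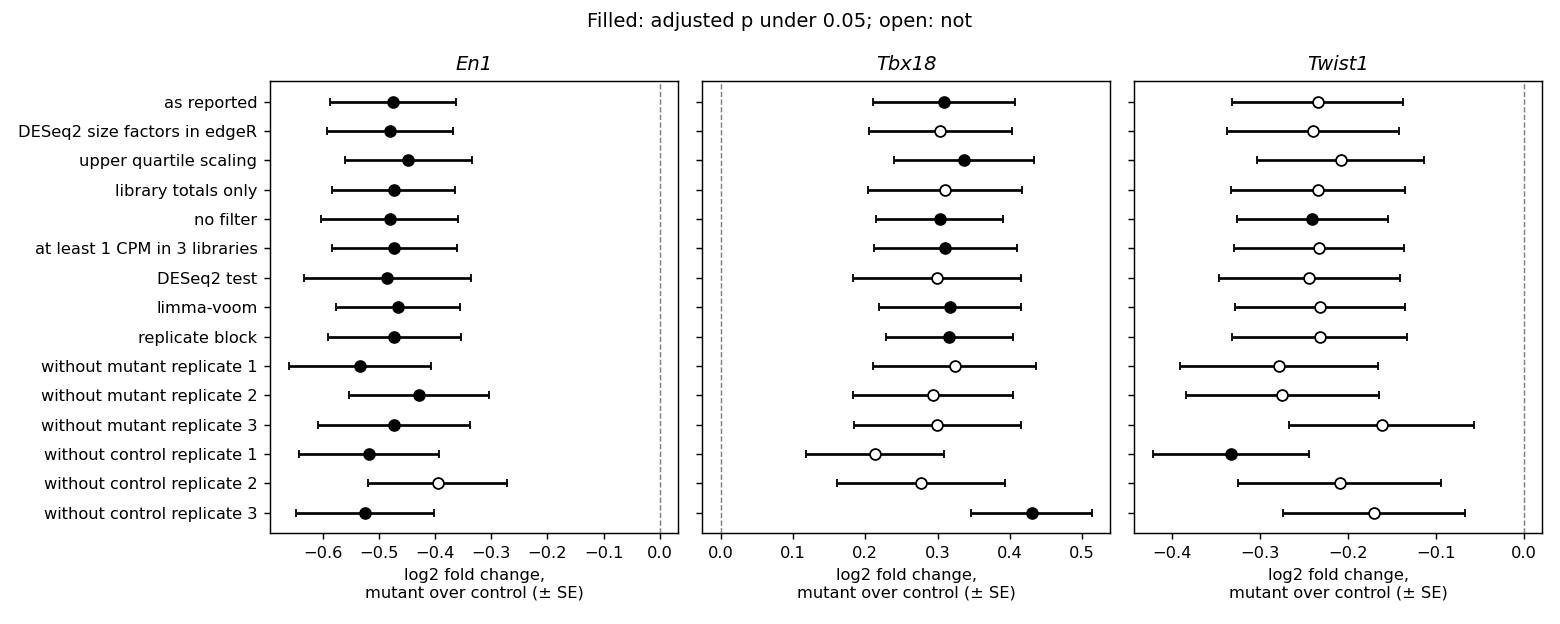
Log2 fold change, mutant over control, ± SE for En1, Tbx18 and Twist1 as reported and under 14 other settings; filled points have an adjusted p under 0.05. En1 was called in 13 of the 14, Tbx18 in 6 and Twist1 in 2, and the sign of the 3 genes was the same in every setting shown.

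Partners and antagonists of the bHLH factors were read from a list of 7 genes, the E proteins with which Twist factors and Tcf21 pair and the Id proteins that take E proteins out of action. Of the 7, 1 was higher, 2 were lower and 4 were not called, with a median log2 fold change of -0.16. Over all tested genes 8.63% were higher and 9.13% lower, a share to set beside the counts of each related list. Id2 had 62.9, 56.1 and 59.2 CPM in mutants, against 99.4, 80.1 and 97.1 CPM in controls (log2 fold change -0.64, edgeR adjusted p = 0.0011). Every mutant library was below every control, as for 18.6% of tested genes, and Id2 was called in all alternatives. Id4 (18.0 ± 0.747 CPM in mutants, 23.9 ± 3.20 CPM in controls, log2 fold change -0.41) was lower too. The E protein gene Tcf3, which encodes E12 and E47, was higher (208 ± 4.22 CPM in mutants, 172 ± 12.3 CPM in controls, log2 fold change 0.27). Id4 and Tcf3 each lost the call in 5 of the 6 fits that left out 1 library, the exception being control replicate 1 (edgeR adjusted p up to 0.107 for Id4 and 0.0981 for Tcf3), so that Id2 alone was called in those fits.

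Factors that drive epithelial cells towards a mesenchymal state were given by 4 genes, of which Zeb1 was listed at 0 in all 6 libraries; whether the annotation used for counting could count its reads was not tested, so the 0 does not show that the transcript was absent. Of the 3 tested, Snai1 was lower, with 54.7, 42.4 and 47.2 CPM in mutants, against 72.9, 84.9 and 73.3 CPM in controls. All mutant libraries were below all controls, as for 18.6% of tested genes, and the log2 fold change was -0.68 (SE 0.101, edgeR adjusted p = 0.00142). Snai2 and Zeb2 were not called.

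Of 22 relatives of the 10 factors by protein family, 21 matched a row and 15 were tested. Of these 15, 4 were higher and 2 lower, against 8.63% and 9.13% of all tested genes. Their median log2 fold change was -0.12. Tbx2, a T-box repressor, was higher (26.6 ± 5.48 CPM in mutants, 16.1 ± 1.5 CPM in controls, log2 fold change 0.73, edgeR adjusted p = 0.00714). The forkhead gene Foxp1 was higher (42.3 ± 3.76 CPM in mutants, 28.9 ± 0.421 CPM in controls, log2 fold change 0.55). Msc, a bHLH factor of muscle precursors, was higher (11.5 ± 3.31 CPM in mutants, 4.10 ± 0.875 CPM in controls, log2 fold change 1.51), beside the higher skeletal muscle markers given above, whose part was not tested. The paralogue of Osr1, Osr2, was named after its values were seen and averaged 299 CPM in mutants and 299.6 CPM in controls, while that of En1, En2, did not pass the filter. The calls of both lower relatives were lost when mutant replicate 2, mutant replicate 3, control replicate 2 or control replicate 3 was left out, and without control replicate 1 the number called lower was 1.

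Among 28 further mesenchymal factors 25 were tested, with 4 higher and 3 lower, against 8.63% and 9.13% of all tested genes. Their median log2 fold change was 0.22. Mkx, a factor of tendon, was lower at 1.27 ± 0.160 CPM in mutants and 3.94 ± 0.0703 CPM in controls (log2 fold change -1.62, edgeR adjusted p = 0.000878). Scx, a tendon factor among the family relatives above, went the other way and was named after its values were seen. It had 1.47 ± 0.552 CPM in mutants and 0.453 ± 0.102 CPM in controls (log2 fold change 1.68, edgeR adjusted p = 0.0131). Pax9 was higher from low levels (1.53 ± 0.334 CPM in mutants, 0.486 ± 0.235 CPM in controls), a call lost without control replicate 3 (edgeR adjusted p = 0.0608). For Mkx all mutant libraries were below all controls, as for 18.6% of tested genes. For Pax9 all were above, as for 19.2% of tested genes. Without mutant replicate 1 or control replicate 3, 2 of the 28 factors were higher.

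Of 10 factors of mural cells, 1 was higher and 3 were lower, against 8.63% and 9.13% of all tested genes. Their median log2 fold change was 0.09. Myocd, the coactivator of smooth muscle contractile genes, had 3.22, 3.31 and 4.64 CPM in mutants, against 16.1, 11.0 and 8.44 CPM in controls (log2 fold change -1.66, edgeR adjusted p = 0.00253). Mef2c was lower as well (171 ± 19.3 CPM in mutants, 253 ± 28.4 CPM in controls, log2 fold change -0.56). Ebf1, a factor of perivascular and preadipocyte cells, was higher (281 ± 35.6 CPM in mutants, 199 ± 33.5 CPM in controls, log2 fold change 0.50, edgeR adjusted p = 0.0324). Its call was lost without mutant replicate 2 or 3 or control replicate 2, and with library totals as the only scaling (edgeR adjusted p up to 0.0974). The lower smooth muscle markers stand beside the values of Myocd and Mef2c, and their part was not tested.

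A list of 8 genes was reported elsewhere as targets of Twist1 or Prrx1, some of them in human cancer cells. Whether a target was reported as activated or repressed was not taken into account. The counts and the median of this list are therefore no measure of target activity. Of the 8, 2 were higher and 1 lower, against 8.63% and 9.13% of all tested genes. Their median log2 fold change was 0.13. The lower gene was Pdgfra (log2 fold change -1.24), which is also the gene that carries the mutant allele. Postn, the matrix protein periostin, had 5075, 4723 and 5265 CPM in mutants, against 3498, 3481 and 3922 CPM in controls (log2 fold change 0.47, edgeR adjusted p = 0.00695). Akt2 was higher by a log2 fold change of 0.25, a call lost without mutant replicate 1 or 3 or control replicate 2 or 3 (edgeR adjusted p up to 0.105), which left 1 target higher. Tnc, Cdh2, Snai2, Bmi1 and Cdh1 were not called.

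**Figure D5:**
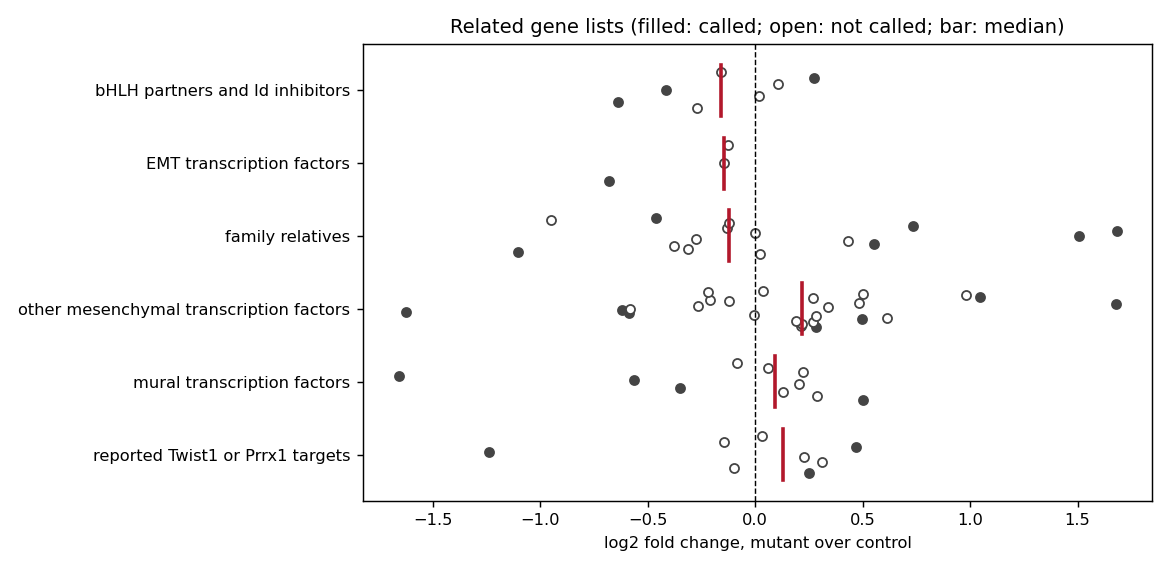
Log2 fold change, mutant over control, of the tested genes of 6 related lists, 1 point a gene; filled points were called, open points were not, and the red bar is the median of the list. Medians lie between -0.16 and 0.22, and called genes lie on both sides of 0 in every list but that of the factors of epithelial to mesenchymal change, where Snai1 alone was called.

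The genes whose log2 CPM followed each factor most closely over the 6 libraries are given as a description, since high correlations are common over so few points that also share genotype and library. The 2 nearest genes were Herpud1 and Sgsh for En1 (Pearson r of 0.994 and 0.993) and Ndp and Mypopos for Tbx18 (0.997 and 0.992). They were Abi2 and Naa15 for Twist1, Sema3f and Nat8l for Twist2, Ammecr1 and Hnrnpu for Prrx1, and G6pdx and Rps6ka1 for Prrx2. They were Mgat1 and Nsmce1 for Osr1, and Mllt10 and Gabra3 for Foxf2, and the nearest gene to Tbx15 was Akap1. Over the genes named here r was 0.952 to 0.997. Herpud1, an endoplasmic reticulum stress gene, was lower in mutants, as En1 was, at 45.4 CPM in mutants and 61.9 CPM in controls (edgeR adjusted p = 0.00446). It was picked for following En1 over these same libraries, so its direction is no separate result. Among the 10 factors themselves Twist1 and Prrx1 had an r of 0.81, Prrx1 and Osr1 of -0.87, and En1 and Tbx18, called in opposite directions, of -0.83.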

How the data were processed

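The authors deposited whole-number read counts per Ensembl gene, 1 file per library. Per the submitters' processing notes, which give neither role nor order, reads were handled on mm9 with HTSeq 0.5.3, TopHat2 2.0.4, cutadapt 1.1, FastQC and DESeq2; whether counting used strand is not stated there. Symbols were matched by identifier for 32919 of 37991 rows, and a further 5 rows without a gene were left out. Exon lengths and overlaps came from GENCODE M21 (GRCm38) and promoters from RefSeq, both on a later build.

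Counts were filtered with filterByExpr (minimum count 10, minimum total 15), scaled by TMM and tested in R 4.3.3 by the robust quasi-likelihood F test of edgeR 4.0.16, with genotype as the single term. A gene was called at a Benjamini-Hochberg adjusted p under 0.05 over 15035 genes; intervals are at 95%. The procedure was also run on counts simulated with dispersions fitted to these same data. That run is no independent check, and its outcome is not given here. DESeq2 1.42.0 and limma 3.58.1 (voom) served as alternatives. Pairs of libraries within groups differed by more than sampling noise (chi-square per degree of freedom 4.73 to 13.3). With 3 libraries a group, the smallest two-sided p of an exact permutation test is 0.1.

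The members and lists were chosen with earlier results of these data known. All 10 factors are named. Each related list gives its called genes, at most 3 by smallest adjusted p; marker lists give sums, and each factor its 2 most similar genes by Pearson r of log2 (CPM + 0.5); 2 genes that these rules select are not reported here. Foxl1 of the lists matched no row. A list of 9 dissociation response genes had 1 higher (Jun, log2 fold change 0.58) and 2 lower (Hspa1b, -2.40, and Hspa1a, -1.86, a pair of close copies that may share reads). Macrophage and leukocyte markers summed to 195 to 231 CPM in mutants and 151 to 244 CPM in controls, mast cell markers to 106 to 124 CPM in mutants and 79.4 to 97.1 CPM in controls, melanocyte markers to 120 to 244 CPM in mutants and 222 to 351 CPM in controls, and Schwann cell markers to 115 to 148 CPM in mutants and 160 to 187 CPM in controls. Fibroblast markers summed to 56187 to 69715 CPM in mutants and 68628 to 76467 CPM in controls. Most of that sum was Col1a1 and Col1a2 (means of 37634 and 25892 CPM over all libraries), so it says little of the other genes. Of the 6 fibroblast markers only Pdgfra was called, and it was lower.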

Additional observations from a re-analysis of the deposited data

How the results depend on the processing

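The sign of the log2 fold change was the same in all 14 alternatives for the 9 tested factors except Twist2, which ranged from -0.24 without mutant replicate 1 to 0.0037 without mutant replicate 3. The rise of Tbx18 was not called with DESeq2 size factors in edgeR, with library totals only or with the DESeq2 test, so that 0 factors were higher there, with 1 at an unadjusted p under 0.05 in each; with no filter 2 factors were lower. Leaving out 1 library at a time gave 0 to 1 factors higher and 0 to 2 lower (1 to 2 and 1 to 3 at an unadjusted p under 0.05), and 658 to 1199 genes higher and 753 to 1500 lower over the whole table. These counts were 658 and 753 without mutant replicate 3, 776 and 881 without control replicate 2, and 679 and 807 without control replicate 3.

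Under the same leave-outs the related lists gave 0 to 1 higher and 1 to 3 lower for partners and Id genes, 0 to 2 lower for family relatives, 2 to 4 higher for further mesenchymal factors, 0 to 1 higher for mural factors, 1 to 3 higher for reported targets and 1 to 3 higher for dissociation genes. Family relatives called lower numbered 1 with upper quartile scaling and 0 with the DESeq2 test. Mural factors called higher numbered 0 with library totals only and 2 with no filter, and dissociation genes called higher 2 with the DESeq2 test. The cause of these changes was not tested.

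Replicate numbers, taken from the sample titles, are shared between the groups, but same-numbered libraries did not deviate together (r of 0.127, -0.0126 and -0.114), and not every library correlated best with its own number. The deposited files number each mutant 1 higher than its title does; by those numbers mutant replicates 1 and 2 would share a number with control replicates 2 and 3 (r of -0.0698 and 0.182), and no such block was fitted. With the title's replicate number as a block, 1329 genes were higher and 1439 lower, family relatives called lower numbered 1, and En1 and Tbx18 were both called. Depth limits Tcf21, whose libraries held 0 to 6 reads, and Foxf2, with 6 to 43 reads, varied widely between libraries of a group.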
